A study of Homo sapiens with 6 samples.

Results

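The STAT and JAK genes described here are 9 of the 56584 gene symbols in the deposited tables: the transcription factors STAT2, STAT3, STAT4, STAT5A, STAT5B and STAT6, and the kinases JAK1, JAK2 and JAK3. They were chosen by family name, and every table row whose gene name, split at commas, held 1 of these symbols was taken. Messenger RNA was measured in a human lymphoma B cell line in 2 forms, LY19WT with wild-type EZH2 and LY19Y646F with the mutant EZH2-Y646F expressed at all times from a CMV promoter. Each form gave 3 libraries. Cells of both were untreated, between passages 10 and 15, and grown in RPMI medium with fetal bovine serum. The labels do not say whether LY19Y646F is a single clone or a pool, nor whether LY19WT carries a control vector. EZH2 is the histone H3 lysine methyltransferase of Polycomb repressive complex 2.

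The cytokine receptors that signal through JAKs have no kinase of their own. JAK kinases bound to the receptor tails phosphorylate them when a cytokine binds, STAT proteins dock on the phosphorylated tails, are phosphorylated in turn, and enter the nucleus as dimers that bind DNA. In B lineage cells STAT5 acts downstream of interleukin 7 in precursors, STAT6 downstream of interleukin 4, and STAT3 downstream of interleukins 10 and 21.

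In LY19Y646F the RNA of STAT5A, STAT5B and STAT3, a run of neighbouring genes on chromosome 17, was lower than in LY19WT. STAT5A fell from 31.0 ± 3.45 to 0.443 ± 0.274 FPKM (mean ± SD, n = 3 libraries per line), STAT5B fell from 22.2 ± 1.21 to 5.33 ± 0.320 FPKM, and STAT3 fell from 15.6 ± 1.38 to 7.49 ± 0.481 FPKM. FPKM counts fragments per length of transcript and per library total. Levels of different genes can thus be set side by side, but their order can depend on the quantification. JAK1, STAT2 and STAT6 did not pass the test, JAK3 was lower on a fit that rests on 5 libraries, and STAT4 was listed at 0 in every library. In bulk RNA, fewer expressing cells and less RNA per cell cannot be told apart.

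Of the 9 genes, 5 entered the fit over all genes (limma on log2(FPKM + 1), adjusted over 10670 tested genes, threshold 0.05). Of these 5, 3 were called lower and 0 higher. The background share of calls was 33.3% of tested genes, with 16.7% higher and 16.6% lower in LY19Y646F, so a call by itself is common in this comparison. With the merged rows described next set to missing, 8 of the 9 were tested, 4 were lower and 0 higher, where 32.1% of 12030 genes were called and 16.1% were lower. STAT4 was the gene not tested.

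Several facts of the libraries touch these values. Loci were assembled in each library separately, and 3 of the 54 gene and library values come from a row that also names another coding gene. In LY19WT replicate 3 the 10 highest rows held 27.5% of the summed FPKM, against 5.71% to 9.38% in the other libraries. Without that library the same 3 genes were called lower. EZH2 RNA was 70.6 ± 8.73 FPKM in LY19WT and 81.4 ± 11.7 FPKM in LY19Y646F (limma adjusted p = 0.38), a value that does not separate the mutant from the wild-type transcript. Of the B cell markers CD79B was higher in LY19Y646F, and CD79A was present in both lines. Of 4 tested precursor B cell markers 3 were lower and 0 higher in LY19Y646F, where the list summed to between 83.5 and 87.1 FPKM against 412 to 612 FPKM in LY19WT. Most of the LY19Y646F sum was MME (CD10), a surface peptidase also found on germinal centre B cells, at 56.2 ± 15.7 and 83.4 ± 1.69 FPKM (limma adjusted p = 0.076). DNTT, the template-independent DNA polymerase of V(D)J joining, fell from 120 ± 43.4 to 0.0703 ± 0.0193 FPKM. T and NK cell markers summed to at most 2.12 FPKM and fibroblast and epithelial markers to at most 0.332 FPKM in any library. Of the myeloid markers LYZ, lysozyme, fell from 11.9 ± 1.63 to 0.156 ± 0.0934 FPKM. The lower markers fell together with STAT5A, STAT5B and STAT3, while CD79B went the other way. The part of any of these markers in the differences was not tested.

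**Figure D1:**
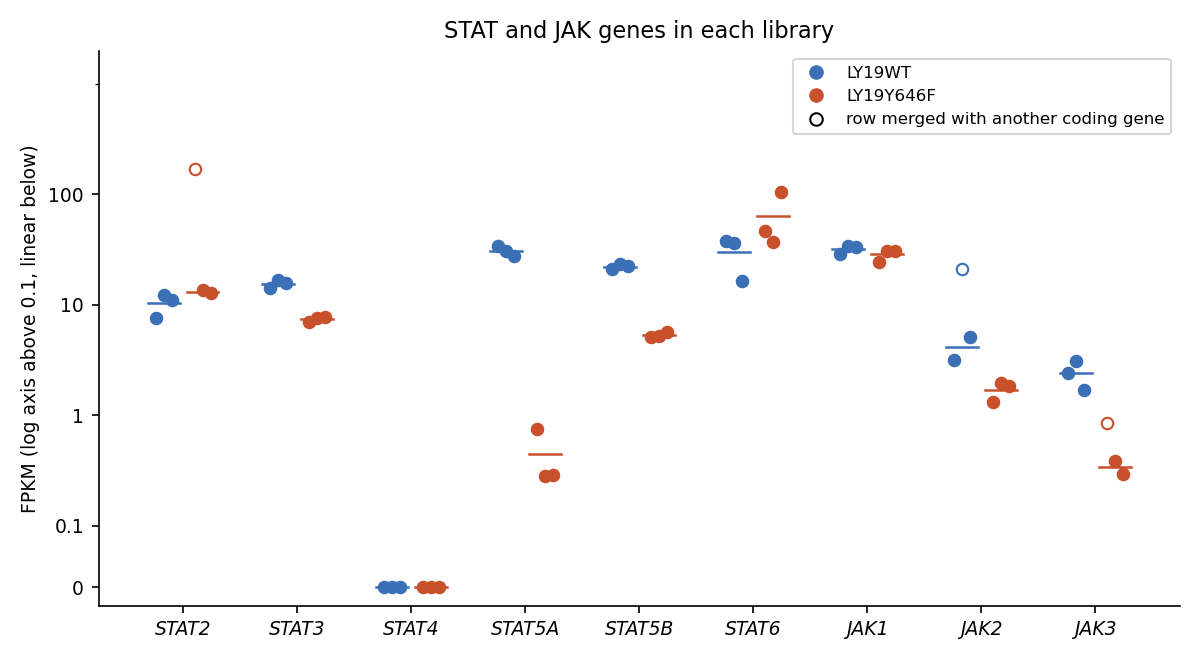
FPKM of the 9 genes in each of the 6 libraries, on an axis that is logarithmic above 0.1 and linear below; points are libraries, open points are rows merged with another coding gene, and lines are means of the unmerged libraries. The 3 LY19Y646F points of STAT5A lie between 0.284 and 0.759 FPKM, under the lowest LY19WT point of 27.6 FPKM, while those of JAK1 overlap.

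Among the kinases JAK1, which pairs with receptors for interferons and for cytokines of the interleukin 2 and interleukin 6 families, was more abundant than JAK2 and JAK3 in every library. It stood at 28.9, 34.1 and 33.8 FPKM in LY19WT and at 24.7, 31.0 and 31.0 FPKM in LY19Y646F. The ranges of the lines overlapped. The difference was -0.16 on the log2(FPKM + 1) scale (SE 0.14, limma adjusted p = 0.43). TYK2, the other kinase of the family, is not among the 9 genes and did not pass the test (limma adjusted p = 0.29). It was above JAK1 in 5 of the 6 libraries, at 60.9, 100.1 and 82.5 FPKM in LY19WT and at 30.1 and 74.0 FPKM in LY19Y646F replicates 1 and 3. It was listed at 0 in LY19Y646F replicate 2, while the authors' deposited table gives 98.8 and 86.4 FPKM for the lines. The JAK1 row spans chr1:65298912-65432187 on hg19, the build of all coordinates of the files.

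JAK3, which binds the common gamma chain shared by the receptors for interleukins 2, 4, 7 and 21, was lower in LY19Y646F. It stood at 2.42, 3.11 and 1.69 FPKM in LY19WT and at 0.389 and 0.295 FPKM in LY19Y646F replicates 2 and 3. Both LY19Y646F values lay under all LY19WT values. In LY19Y646F replicate 1 the row also names INSL3 and holds 0.862 FPKM. That gene, a peptide hormone of the testis, was at most 0.0651 FPKM in rows of its own. With the merged row counted, the means were 2.41 and 0.515 FPKM and the difference was -1.17 (SE 0.25, limma adjusted p = 0.025). With the merged library left out, which removes the highest LY19Y646F value, the mean was 7.04-fold lower, and JAK3 differed by -1.32 (SE 0.24, limma adjusted p = 0.018). The call was lost with the replicate number as a block (adjusted p = 0.068) and when LY19WT replicate 1 (0.055), LY19Y646F replicate 2 (0.078) or LY19Y646F replicate 3 (0.087) was left out as well.

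JAK2, the kinase of the receptors for erythropoietin, thrombopoietin and growth hormone and of the interferon gamma receptor, stood at 3.18 and 5.11 FPKM in LY19WT replicates 1 and 3. In LY19Y646F it stood at 1.31, 1.97 and 1.83 FPKM, under both of those values. The row of LY19WT replicate 2, at 21.0 FPKM, runs on into RCL1, which had 15.6 to 17.6 FPKM of its own in the other LY19WT libraries. Without that library the difference was -0.91 (SE 0.25), which did not pass the threshold (limma adjusted p = 0.056, between 0.051 and 0.19 under 8 alternatives). All JAK2 rows also name RP11-39K24.2, a non-coding gene, so its share of the value is unknown.

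STAT5A and STAT5B, closely related factors that carry signals of interleukins 2 and 7 and of growth hormone and prolactin, had the largest differences among the 9 genes on the log2(FPKM + 1) scale, which understates the change of low genes such as JAK3. STAT5A stood at 34.5, 30.9 and 27.6 FPKM in LY19WT and at 0.759, 0.284 and 0.286 FPKM in LY19Y646F. No LY19Y646F value came near the LY19WT range, and the Cufflinks confidence interval of LY19Y646F replicate 3 reached 0. The mean was 70.0-fold lower, or 1.43% of that in LY19WT, and the difference on the log2(FPKM + 1) scale was -4.48 (SE 0.18, limma adjusted p = 5.09e-05). Only 78 of the 10670 tested genes, 0.731%, were called with a fall at least as large, STAT5A included.

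STAT5B stood at 20.9, 23.3 and 22.4 FPKM in LY19WT and at 5.08, 5.22 and 5.69 FPKM in LY19Y646F. The lines did not overlap, as for 48.6% of all tested genes in either direction and 24.2% in this direction. The mean was 4.17-fold lower and the difference -1.88 (SE 0.10, limma adjusted p = 0.00014). In LY19WT replicates 2 and 3 the row also names AC003104.1, a non-coding gene at 0.413 to 0.803 FPKM in the 4 libraries where it has a row of its own.

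The sum of STAT5A and STAT5B was 53.2 ± 2.86 FPKM in LY19WT and 5.77 ± 0.243 FPKM in LY19Y646F, where most of it was STAT5B. The ratio of STAT5A to STAT5B was 1.65, 1.32 and 1.23 in LY19WT and 0.149, 0.0544 and 0.0502 in LY19Y646F, with means of 1.40 ± 0.218 and 0.0847 ± 0.0561 (exact two-sided permutation p = 0.10, the smallest that 3 against 3 libraries allow). STAT5A was the more abundant of the pair in every LY19WT library and the less abundant in every LY19Y646F library. The authors' deposited table instead gives STAT5B above STAT5A in LY19WT, at 45.9 and 35.7 FPKM, so the order there depends on the quantification. A ratio within a library does not depend on how the library was scaled.

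Some reads of this pair fit both genes. In the reference transcripts of GENCODE the coding sequences share an identical run of 429 bases, positions 564 to 992 from the first base of the start codon in both. Of the distinct 85-base windows of STAT5A transcripts, 85 nt being the read length, 401 of 5994 (6.69%) occur unchanged in STAT5B, and no other pair of the 9 genes shares such a window. The first of these windows in the run, a read that fits both genes, is shown next, followed by positions 963 to 1022 of both coding sequences, where the run ends and the single differing base is in capitals.
STAT5A and STAT5B shared read: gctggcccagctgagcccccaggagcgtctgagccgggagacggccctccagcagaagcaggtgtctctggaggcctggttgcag
STAT5A end of run: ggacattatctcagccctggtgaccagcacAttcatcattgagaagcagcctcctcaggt
STAT5B end of run: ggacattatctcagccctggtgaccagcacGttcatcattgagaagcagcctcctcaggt
How such reads were divided is not given in the sources used here, and their part in the STAT5A values of LY19Y646F, which were 0.0502 to 0.149 times the STAT5B values, was not tested.

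STAT3, the factor of the interleukin 6, 10 and 21 receptors, stood at 14.2, 16.9 and 15.7 FPKM in LY19WT and at 6.95, 7.67 and 7.86 FPKM in LY19Y646F. Every LY19Y646F library was under every LY19WT library. The mean was 2.08-fold lower and the difference -0.96 (SE 0.12, limma adjusted p = 0.0025).

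STAT6, the factor of the interleukin 4 and 13 receptors, varied widely within both lines. It stood at 38.0, 36.3 and 16.4 FPKM in LY19WT and at 47.1, 37.1 and 106 FPKM in LY19Y646F. LY19WT replicate 3 was low, LY19Y646F replicate 3 was high, and the lines overlapped. The difference of 0.98 (SE 0.51) did not pass the test (limma adjusted p = 0.21). NAB2, a repressor of EGR factors whose row overlaps that of STAT6, was listed at 36.5 FPKM in LY19WT replicate 3 and at 0 in the other 5 libraries, so the lowest STAT6 value stood beside the only NAB2 value. The authors' deposited table gives NAB2 7.34 and 5.23 FPKM, so these zeros need not mean absence.

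STAT2, which with IRF9 forms part of the factor that type I interferons activate, stood at 7.65, 12.2 and 11.1 FPKM in LY19WT and at 13.6 and 12.8 FPKM in LY19Y646F replicates 2 and 3. Both of the latter were above the LY19WT values. In LY19Y646F replicate 1 its row joins CNPY2, CS and PAN2 at 170 FPKM. The row of CS, citrate synthase, held 129 to 242 FPKM in the other libraries, where STAT2 is no part of it. With that library left out, the difference was 0.35 (SE 0.23, limma adjusted p = 0.34). STAT4, the factor of the interleukin 12 receptor in T and NK cells, was listed at 0 in all 6 libraries and was not found in the authors' table.

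**Figure D2:**
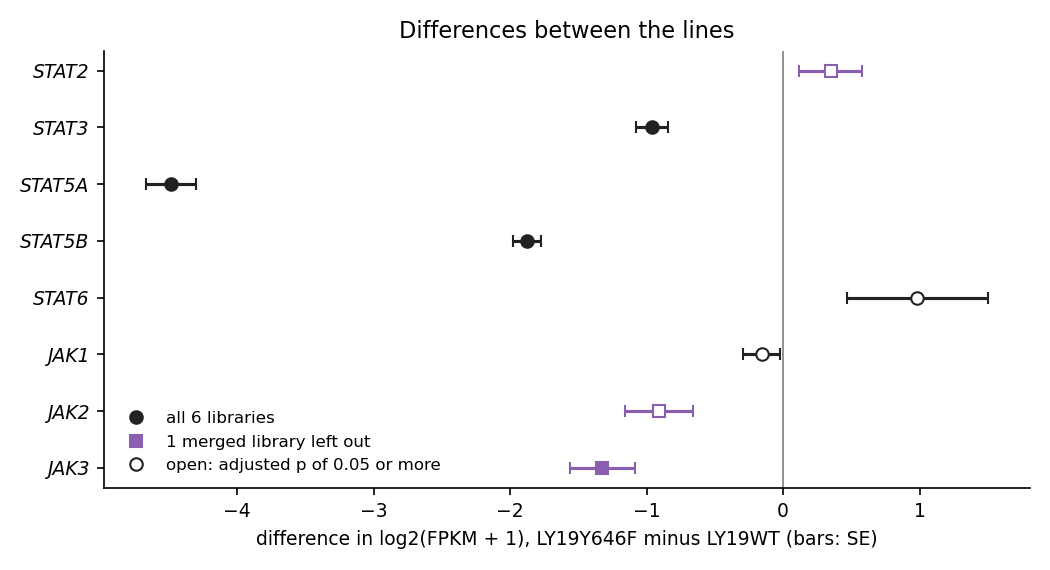
Difference in log2(FPKM + 1), LY19Y646F minus LY19WT, with its SE for the 8 genes tested; squares leave out a merged library and open symbols did not pass an adjusted p of 0.05. STAT5A, STAT5B, STAT3 and JAK3 are filled and lie left of 0, from -4.48 to -0.96.

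Ordered by level, LY19WT had JAK1 (32.3 FPKM), STAT5A (31.0) and STAT6 (30.2) at the top, with overlapping libraries, then STAT5B (22.2), STAT3 (15.6) and STAT2 (10.3), and last JAK2 (4.15) and JAK3 (2.41), leaving out merged rows. In LY19Y646F the order was STAT6 (63.4), JAK1 (28.9), STAT2 (13.2), STAT3 (7.49), STAT5B (5.33), JAK2 (1.70), STAT5A (0.443) and JAK3 (0.342). STAT5A moved from among the highest to the level of JAK3, whose libraries it overlapped. Both orders are those of the library values. In LY19WT the authors' deposited table has STAT6 (72.6) and STAT5B (45.9) above JAK1 (39.1) and STAT5A (35.7). In LY19Y646F it has STAT5B (12.3) above STAT3 (10.6) and JAK3 (0.767) above STAT5A (0.286).

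The make-up of the genes within a library does not depend on its scaling. STAT5A was 29.9%, 25.8% and 29.6% of the summed FPKM of the 6 STAT genes described here in LY19WT and 0.330%, 0.444% and 0.216% in LY19Y646F. STAT5B was 20.6% ± 3.07 in LY19WT and 4.89% ± 3.03 in LY19Y646F, and STAT3 was 14.4% ± 2.27 and 6.98% ± 4.59 (n = 3). In LY19Y646F replicate 1 the merged STAT2 row was 74.0% of the sum, which lowers the shares of the other genes there. Without that library the LY19Y646F share was 6.23% ± 2.75 for STAT5B and 8.97% ± 4.30 for STAT3 (n = 2). STAT6 made up 17.6% to 33.0% in LY19WT and 58.1% and 79.9% in LY19Y646F replicates 2 and 3, the libraries without the merged STAT2 row. JAK1 was 83.8% and 83.2% of the sum of JAK1, JAK2 and JAK3, which leaves out TYK2, in LY19WT replicates 1 and 3 and 92.9% and 93.6% in LY19Y646F replicates 2 and 3, again leaving out merged rows. Over 8 shares the exact two-sided permutation p was 0.10 or 0.30 with all libraries, 0.13 or 0.30 after Benjamini-Hochberg adjustment, so the design cannot pass 0.05.

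**Figure D3:**
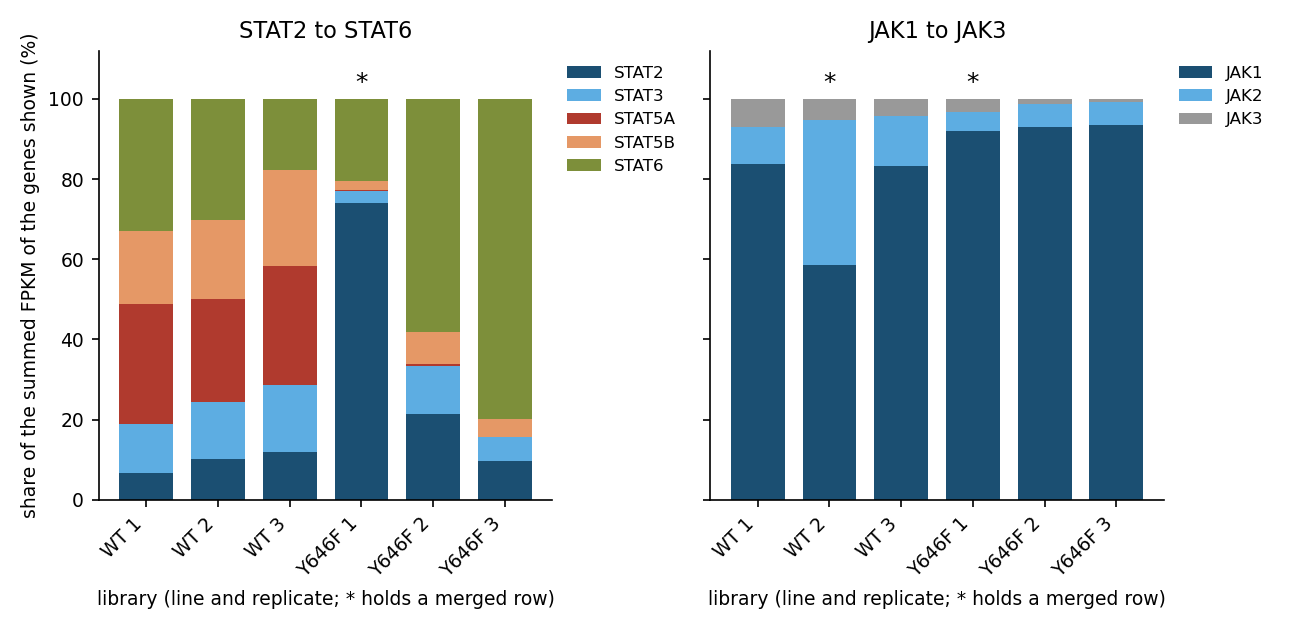
Share of each gene in the summed FPKM of STAT2 to STAT6 (left) and of JAK1 to JAK3 (right) in each library; stars mark libraries that hold a merged row. The STAT5A segment fills 25.8% to 29.9% of the bar in LY19WT and at most 0.444% in LY19Y646F, and the STAT2 segment of LY19Y646F replicate 1 includes its merged row.

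The STAT5B, STAT5A and STAT3 rows cover chr17:40351113-40540586, 189474 bases in all. STAT5B (chr17:40351186-40428725 in 4 libraries) and STAT5A (chr17:40439565-40463961) are read away from each other, with 10839 bases between their rows, and STAT3 (chr17:40465342-40540586) is read towards STAT5A, with 1380 bases between them. Within 250 kb of the 3 rows lie 24 other coding genes of the files, of which 9 could be tested, 7 shared a row and 8 were too low. Of the 9, 1 was lower and 1 higher, near the background of 16.6% and 16.7%. The lower was GHDC, 4582 bases from STAT5B, at 8.87 ± 1.98 and 3.35 ± 1.09 FPKM (difference -1.19, limma adjusted p = 0.018), a call lost without LY19WT replicate 1 or 2 or LY19Y646F replicate 2 or 3 (adjusted p up to 0.073). The higher was ATP6V0A1, a subunit of the proton pump of lysosomes, at 2.43 ± 0.0976 and 5.88 ± 1.07 FPKM (difference 0.99, limma adjusted p = 0.0065). DHX58, an RNA sensor, was at 1.42 ± 0.723 and 0.787 ± 0.453 FPKM and did not pass (limma adjusted p = 0.33). The authors' deposited table gives DHX58 1.96 and 0.487 FPKM. PTRF, next to STAT3 on the other side, was listed at 0 throughout. Of the tested genes not called, CNP was listed at 0 in LY19Y646F replicates 2 and 3. NKIRAS2 and PSMC3IP were listed at 0 everywhere but in LY19WT replicate 1. The authors' deposited table gives CNP 34.9 and 21.7, NKIRAS2 17.8 and 16.3 and PSMC3IP 19.8 and 16.7 FPKM. Such zeros need not mean absence, so the count of 1 lower and 1 higher is unsure for these genes.

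**Figure D4:**
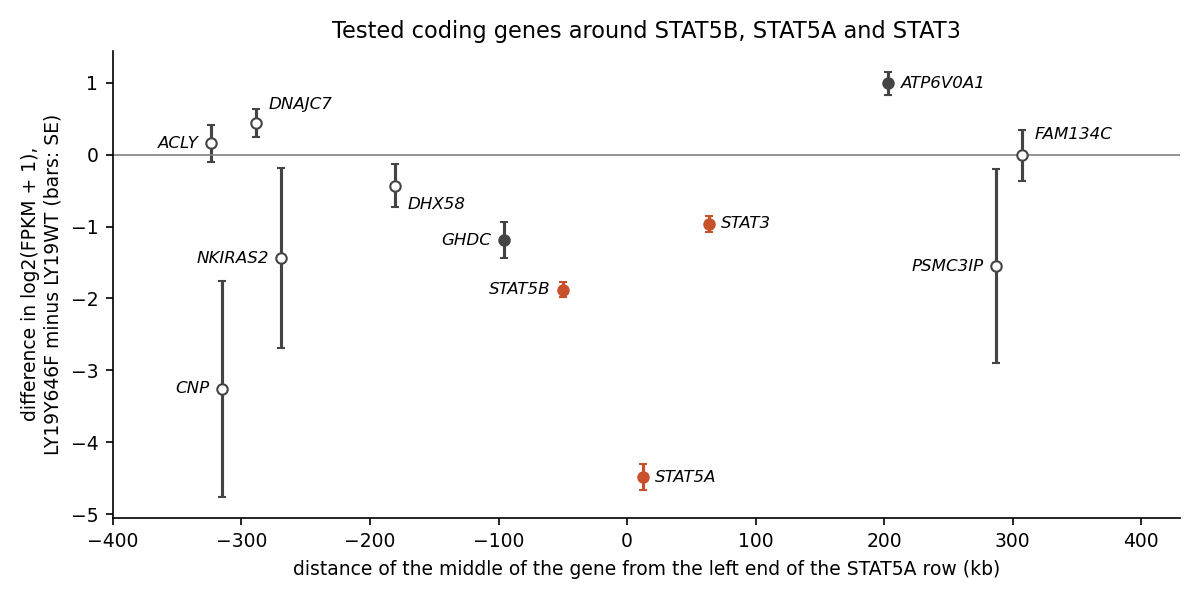
Difference in log2(FPKM + 1) with its SE for the tested coding genes around STAT5B, STAT5A and STAT3, by distance in kb from the left end of the STAT5A row; filled points passed an adjusted p of 0.05. The STAT genes lie between -4.48 and -0.96, GHDC at -1.19 and ATP6V0A1 at 0.99.

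The starts of the 3 genes differ in CpG content, the dinucleotide that marks CpG islands, so the 250 bases before the most upstream start listed by RefSeq (GRCh38.p14) are shown with each CpG in capitals.
STAT5A, plus strand, chr17:42287189-42287438: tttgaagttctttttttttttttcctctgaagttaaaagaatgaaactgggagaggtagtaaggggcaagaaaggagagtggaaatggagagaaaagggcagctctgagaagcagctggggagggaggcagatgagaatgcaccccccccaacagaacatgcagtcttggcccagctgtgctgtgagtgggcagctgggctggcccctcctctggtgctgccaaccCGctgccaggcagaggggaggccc
STAT5B, minus strand, chr17:42276392-42276641: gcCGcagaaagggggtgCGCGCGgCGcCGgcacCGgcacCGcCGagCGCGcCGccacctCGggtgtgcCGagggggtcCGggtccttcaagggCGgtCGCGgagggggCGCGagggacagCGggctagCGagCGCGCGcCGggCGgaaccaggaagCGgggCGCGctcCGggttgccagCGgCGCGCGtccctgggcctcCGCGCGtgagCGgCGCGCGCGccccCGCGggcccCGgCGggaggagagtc
STAT3, minus strand, chr17:42388443-42388692: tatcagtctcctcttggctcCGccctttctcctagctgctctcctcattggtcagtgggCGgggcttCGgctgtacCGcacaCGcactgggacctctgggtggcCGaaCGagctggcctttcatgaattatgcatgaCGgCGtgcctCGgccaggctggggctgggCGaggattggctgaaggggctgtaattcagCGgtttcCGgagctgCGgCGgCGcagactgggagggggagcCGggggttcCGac
With the 50 bases after the start, the STAT5B window held 55 CpG, more than 99.6% of 35116 promoter windows of that length, whose median was 14. The STAT3 window held 23. For STAT5A RefSeq lists 3 starts, and their windows held 3, 5 and 37 CpG. The low and the high windows of STAT5A belong to different starts of one gene, and the files do not say which start was used.

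All 9 genes matched the RefSeq promoter table. Their most upstream windows were searched on both strands for the STAT motif TTCNNNGAA, its wider form with 4 free bases between TTC and GAA, which STAT6 prefers, and an interferon-response core of GAAA, 2 free bases and GAAA. The first was in 0 of the 9 and in 7.66% of all windows, and the last in 0 of the 9 and in 3.57% of all windows. The wider form was in 1 of the 9 and in 6.44% of all windows: STAT5A holds TTCCTCTGAA with its first base 229 bases before the start. The most upstream windows of the genes not given above held between 4 and 25 CpG: 25 for STAT2, 15 for JAK1, 14 for JAK3, 12 for STAT6, 11 for JAK2 and 4 for STAT4. Windows of further starts held 43 and 9 CpG for JAK1, 39, 28 and 14 for JAK2, and 11 for STAT4.

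Near the other genes the calls went both ways. RAVER2, whose row meets the 3′ end of JAK1, was at 12.3, 15.1 and 15.1 FPKM in LY19WT and listed at 0 in the 3 LY19Y646F libraries, while the authors' deposited table gives 14.9 and 3.44 FPKM. AK4, an adenylate kinase of mitochondria 181045 bases from JAK1 on the other side, rose from 9.17 ± 1.48 to 45.4 ± 10.4 FPKM (limma adjusted p = 0.0012). Beside JAK2, AK3 was lower (difference -0.46, limma adjusted p = 0.025) and PLGRKT higher (0.91, limma adjusted p = 0.022). Beside JAK3, FCHO1 (limma adjusted p = 0.78) and CCDC124 (0.99) did not pass. Beside STAT6, ZBTB39 was lower (-0.47, limma adjusted p = 0.021) and NXPH4 higher (2.40, limma adjusted p = 0.011). Leaving out single libraries ended some of these calls: those of AK3 and PLGRKT without LY19WT replicate 2 or 3 or LY19Y646F replicate 2 or 3, and that of ZBTB39 without any library but LY19Y646F replicate 1. Beside STAT2, COQ10A (limma adjusted p = 0.23) and SPRYD4 (0.77) did not pass. COQ10A was listed at 0 in LY19Y646F replicate 2, and SPRYD4 and FCHO1 in LY19Y646F replicate 3. The authors' deposited table gives COQ10A 22.1 and 14.6, SPRYD4 4.98 and 8.07 and FCHO1 4.01 and 16.8 FPKM, so these zeros need not mean absence.

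Many genes followed the pattern of the 3 lower STAT genes over the 6 libraries. Pearson's r on log2(FPKM + 1) was over 0.95 with STAT5A for 860 of 8158 genes at a mean of at least 2 FPKM, with STAT5B for 946 and with STAT3 for 927. The 2 genes most like STAT5A were PHYH (r = 0.9998), a peroxisomal hydroxylase at 51.3 ± 3.47 and 3.76 ± 0.703 FPKM, and CRTC3 (r = 0.9996), a CREB coactivator. Those most like STAT5B were ARPP21 (r = 0.9997), at 107 ± 13.7 and 1.11 ± 0.320 FPKM, and GIMAP4 (r = 0.9996). Those most like STAT3 were E2F3 (r = 0.9994), at 28.1 ± 2.65 and 14.5 ± 0.953 FPKM, and PKD2 (r = 0.9994). Among themselves STAT5A and STAT5B had r = 0.992, STAT5B and STAT3 had r = 0.993, and JAK1 had r between 0.453 and 0.642 with the 3. All points share these 6 libraries, which fall into the 2 lines. A gene that differs steadily between the lines therefore has an r near 1 with these genes, or near -1. These r values restate the difference between the lines and do not show that the genes vary together within a line. In both lines STAT5A was highest and STAT5B lowest in replicate 1.

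The pathway around these genes was read from lists drawn from general knowledge, some of whose genes stand in more than 1 list. The shares to read the counts against are 16.7% higher and 16.6% lower over all tested genes, or 33.3% called. Of 29 cytokine ligands 0 could be tested, as 28 averaged under 1 FPKM and the other shared a row. Of 16 tested receptor chains 7 were higher and 3 lower in LY19Y646F (62.5% called), with a median difference of 0.98 against -0.03 over all tested genes. IL4R, the chain through which interleukin 4 reaches STAT6, rose from 4.23 ± 1.62 to 50.2 ± 10.3 FPKM (limma adjusted p = 0.00057). IL7R, which signals to STAT5, rose from 5.78 ± 0.80 to 19.9 ± 2.80 FPKM (limma adjusted p = 0.0011). The 2 chains of the interferon gamma receptor went apart: IFNGR1 fell from 78.9 ± 2.34 to 16.1 ± 1.84 FPKM (limma adjusted p = 9.6e-05), and IFNGR2 was listed at 0 in the 3 LY19WT libraries and at 27.5, 48.4 and 36.3 FPKM in LY19Y646F. The authors' deposited table gives IFNGR2 2.19 and 35.0 FPKM.

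Of 17 tested inhibitors 4 were higher and 3 lower (41.2% called, near the background), with a median difference of 0.28. PTPRC, the phosphatase CD45, which can dephosphorylate JAKs, rose from 3.92 ± 0.617 to 83.7 ± 11.6 FPKM (limma adjusted p = 4.9e-05). SOCS2, a feedback inhibitor that STAT5 induces, fell from 152 ± 62.0 to 0.0477 ± 0.0166 FPKM (limma adjusted p = 0.0001). SOCS5 fell from 5.56 ± 0.717 to 1.57 ± 0.187 FPKM, and USP18, which restrains the type I interferon receptor, fell from 1.59 ± 0.266 to 0.0523 ± 0.0156 FPKM.

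Of 6 tested partners and adaptors 3 were higher and 1 lower (66.7% called). NMI, a protein that binds several STAT factors, fell from 63.3 ± 12.2 to 0.477 ± 0.0505 FPKM (limma adjusted p = 2.6e-05). STAM2 and STAP1, adaptor proteins of cytokine and kinase signalling, rose to 12.4 ± 2.09 and 41.8 ± 10.3 FPKM from 5.74 ± 0.623 and 15.8 ± 2.18 FPKM. STAM, at 8.53 ± 0.520 and 12.5 ± 1.82 FPKM, passed narrowly (limma adjusted p = 0.048), and of 6 fits with a library left out its call held in 1, that without LY19Y646F replicate 1.

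**Figure D5:**
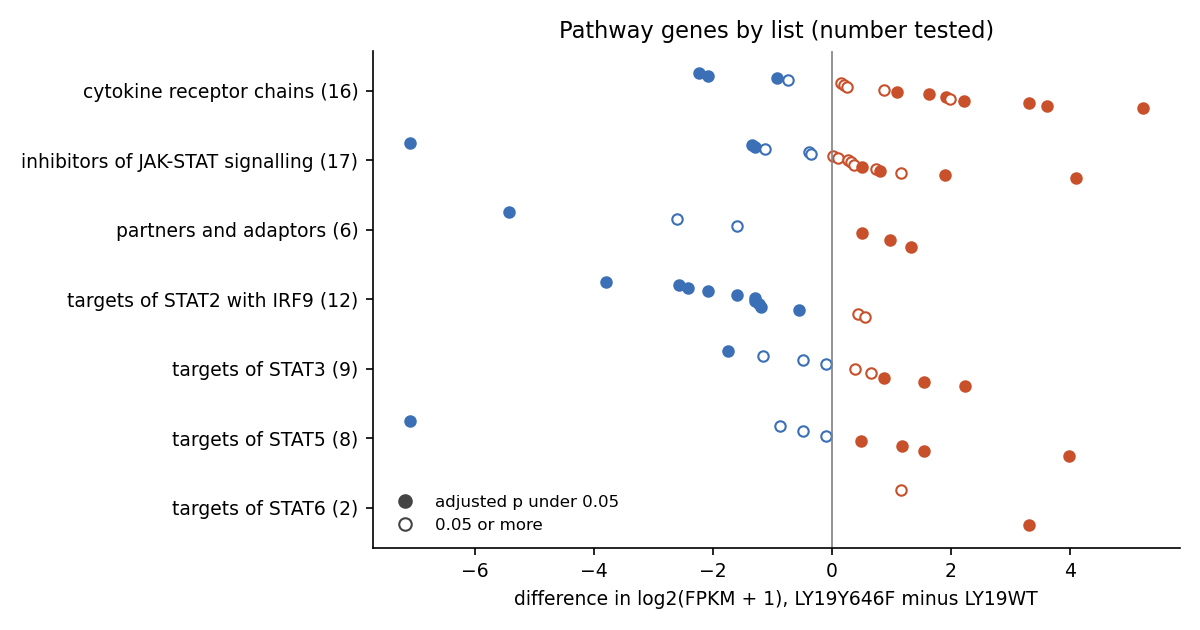
Difference in log2(FPKM + 1), LY19Y646F minus LY19WT, of each tested gene of 7 pathway lists; filled points passed an adjusted p of 0.05 and the number tested stands beside each name. Targets of STAT2 with IRF9 hold 10 filled points, all left of 0. The other lists have filled points on the right, and all of these but the STAT6 targets also have some on the left.

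Textbook targets of the factors were counted the same way. Of 12 tested targets of STAT2 with IRF9, 10 were lower and 0 higher (83.3% called), with a median difference of -1.29, while STAT2 itself did not pass the test. OAS3, an activator of RNase L, fell from 16.7 ± 7.23 to 0.211 ± 0.0447 FPKM (limma adjusted p = 0.00055), and IFIT3 fell from 6.84 ± 0.566 to 0.318 ± 0.0565 FPKM (limma adjusted p = 9.10e-05). OAS2 fell from 10.4 ± 1.33 to 2.78 ± 0.356 FPKM and MX2 from 1.94 ± 0.0791 to 0.204 ± 0.0536 FPKM. With the replicate number as a block IFIT2 (adjusted p = 0.058) and OAS1 (0.072) lost their calls, and with a library left out 8 to 10 of the 12 were lower.

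Of 8 tested STAT5 targets 4 were higher and 1 lower (62.5% called), and with a library left out 3 to 4 were higher and 1 to 2 lower. SOCS2, given above, was the lower. PIM1, a kinase that both STAT3 and STAT5 induce, rose from 1.82 ± 0.169 to 7.25 ± 0.887 FPKM (limma adjusted p = 0.00077). ID1 rose from 0.122 ± 0.0203 to 20.3 ± 16.3 FPKM and LRRC32 from 0.0199 ± 0.0111 to 1.33 ± 0.382 FPKM, and NFIL3, the remaining call, was lost with the replicate number as a block (adjusted p = 0.055) and held in 1 of 6 fits with a library left out, that without LY19Y646F replicate 1 (adjusted p up to 0.15). CISH, a feedback inhibitor that STAT5 induces, was listed at 0 in every library.

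Of 9 tested STAT3 targets 3 were higher and 1 lower (44.4% called), and with a library left out 2 to 3 were higher and 0 to 2 lower. VEGFA rose from 8.57 ± 0.455 to 16.5 ± 0.884 FPKM (limma adjusted p = 0.0023), beside PIM1. BCL6, the germinal centre repressor, was at 14.6 ± 10.6 and 72 ± 48.2 FPKM (limma adjusted p = 0.047), and BATF was at 5.09 ± 3.26 and 0.756 ± 0.754 FPKM (limma adjusted p = 0.039). Each of these last calls held in only 1 of 6 fits with a library left out, BCL6 without LY19WT replicate 3 and BATF without LY19Y646F replicate 1. Of 2 tested STAT6 targets IL4R was higher.

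The authors' deposited table, with 1 FPKM value per line, gives 7 of the 9 genes. It lists STAT5A at 35.7 and 0.286 FPKM (log2 fold change -6.97), STAT5B at 45.9 and 12.3 (-1.90), STAT3 at 19.8 and 10.6 (-0.89) and JAK3 at 2.86 and 0.767 (-1.90). In the authors' deposited table JAK1 has 39.1 and 31.7 FPKM (-0.30), STAT6 72.6 and 100.3 (0.47) and STAT2 13.98 and 16.2 (0.22). Every direction was that of the library values, but in that table STAT5B was above STAT5A in LY19WT too.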

How the data were processed

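Stranded poly(A) RNA libraries, 3 labelled as replicates for each line, were read from 1 end for 85 nt, per the labels' protocols. Whether replicates were separate cultures is not stated, so p-values reflect the spread between libraries, which may be technical. STAR 2.5.3a, Cufflinks 2.2.1 and Cuffdiff 2.2.1 were used on hg19, per the submitters' processing notes. The authors deposited FPKM per assembled locus and library, and a table of 13674 genes with 1 FPKM value for each line and their log2 ratio, per the file headers. How multi-mapping reads, read strand and annotation were handled is not given in the sources used here, and depth is unknown because the files hold no counts, so precision rests on 3 libraries per line.

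Rows were joined by symbol. A symbol was dropped if, in any library, its row failed or also named another protein-coding gene (coding status from GENCODE and RefSeq names), as 8987 of 56584 did. The 10670 genes averaging 0.5 FPKM or more, 7519 of them coding, were analysed as log2(FPKM + 1), a scale that understates changes of low genes, with limma 3.58.1 in R 4.3.3 (trend, two-sided, Benjamini-Hochberg adjustment, threshold 0.05), tested on simulated data. For STAT2, JAK2 and JAK3, added after seeing the data, merged rows were set to missing and the fit repeated on genes with at least 2 libraries per line. Single values were compared by exact permutation (Python 3.11.15, scipy 1.17.1, pandas 2.3.3, numpy 2.4.6; plots with matplotlib 3.10.9).

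Replicate numbers are in the titles. Deviations from the line means correlated at r = 0.274, 0.111 and 0.134 between same-numbered libraries over 10670 genes. Between differently numbered libraries r ran from -0.184 to 0.0996, so the evidence for pairs is weak beyond replicate 1. The labels do not say that a number marks a pair. The main fit therefore did not pair the libraries, and only the replicate block, an alternative, did so.

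Members, lists and tests were chosen with earlier results of these data known. Named were all 9 members, up to 4 called genes per list with the smallest adjusted p and a higher-line mean of at least 1 FPKM, the 2 genes most like each called member, and neighbours within 100 kb of the chromosome 17 genes or nearest to the others. Some genes this rule names are not reported here. CISH, CD79A, MME, TYK2, RCL1, INSL3, CS, NFIL3, IFIT2, OAS1, CNP, NKIRAS2 and PSMC3IP were named after their values were seen. Alternatives covered pseudocounts, filters, scaling, merged rows, coding genes only, library weights, the replicate block and each library left out.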

Additional observations from a re-analysis of the deposited data

How the results depend on the processing

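The calls of STAT5A, STAT5B and STAT3 kept their direction and side of the threshold in every fit that tested them; STAT5B could not be tested among genes alone in their row. Their differences ranged from -5.94 to -4.34, from -2.04 to -1.74 and from -1.04 to -0.82. STAT6 ranged from 0.46 to 1.29, JAK1 from -0.29 to -0.02, STAT2 from 0.16 to 1.54 and JAK2 from -1.62 to -0.64, none of them called. JAK3 lost its call in 4 of 8 alternative fits (adjusted p from 0.015 to 0.087), and the cause was not tested. With the replicate block, which pairs libraries by number, 3866 genes were called instead of 3549, and beyond JAK3 no call of a member changed; of the other list genes CSF2RB, SOCS4, CEBPB and CCND3 gained a call, as did the neighbours DNAJC7 and COLGALT1. Library weights gave 5751 calls, and the cause was not tested. Leaving out a library gave 2773 to 4048 calls. Scaling to equal medians moved every difference by 0.14. The authors' values per line moved STAT3 to -0.84, STAT5A to -4.84 and STAT6 to 0.46. Calls over all pathway lists were 37 of 63, and 26 to 47 in the alternatives. The 3 libraries per line limit all tests.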

Other observations

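Inside the span of STAT5B lies a non-coding gene, RP11-358B23.5. It stood at 0.780, 0.782 and 0.837 FPKM in LY19WT and at 0.228, 1.36 and 0.592 FPKM in LY19Y646F, so the lines overlapped (limma adjusted p = 0.78). The authors' deposited table gives 0.308 and 0.506 FPKM. AC003104.1, also within STAT5B, stood at 0.651 FPKM in LY19WT replicate 1 and at 0.413, 0.803 and 0.702 FPKM in LY19Y646F, and shared the STAT5B row in the other LY19WT libraries.

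RCL1, the neighbour that shares the JAK2 row in 1 library, had 17.6 and 15.6 FPKM in LY19WT replicates 1 and 3 and 48.4, 49.7 and 46.8 FPKM in LY19Y646F. With the merged library set to missing RCL1 was higher in LY19Y646F by 1.49 on the log2(FPKM + 1) scale (SE 0.11, limma adjusted p = 0.0013), while JAK2, its neighbour, had its lower values there.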
